A study of Mus musculus with 12 samples.

Results

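The genes of DNA replication and of the G1/S switch were followed through 4 groups of mouse colonoids, organoids grown from the epithelial stem cells of the colon. The set holds 52 of the 54532 genes in the deposited table, chosen by symbol from a fixed list that runs from origin licensing to the polymerases, nucleotide supply and E2F factors. All 52 passed the filter on low values, as did 12740 genes in all, and they are ordered below by 7 roles. Control colonoids carried floxed, undeleted *Hmox1* alleles (Hmox1 fl/fl). Colonoids labelled KO came from mice in which Vil1-Cre, driven by the villin promoter of intestinal epithelium, was to delete the same alleles (Hmox1 ΔIEC, written in the labels as Hmox1 KO and for 1 sample as Hmox1 fl/fl with Vil1 Cre). Each genotype was given vehicle or hemin (heme whose iron is oxidised and bound to chloride) for 24 hours at 200 μM, and each of the 4 groups had 3 libraries. All colonoids grew in medium conditioned by L-WRN cells, which supply Wnt3a, R-spondin and noggin, and came from healthy mice 8 to 12 weeks old. How many mice stand behind the 3 libraries of a group was not given in the sources used here, so the p-values measure the spread between libraries, which may be technical.

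A cell copies its DNA once per cycle. In G1, the origin recognition complex, Cdc6 and Cdt1 load the ring of Mcm2 to Mcm7 onto origins (licensing), and in S phase Cdc45 and the GINS complex turn that ring into the moving helicase, behind which polymerases, the Pcna clamp and ligase copy both strands. Cyclin E with Cdk2 frees E2F factors from the retinoblastoma protein, and E2F switches on most genes of this machinery, so that their mRNA rises as cells enter S phase. In the colon, dividing cells sit at the base of the crypt, and the genes are low in differentiated colonocytes and goblet cells. In bulk RNA, fewer dividing cells and less RNA per dividing cell cannot be told apart.

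Expression was measured as FPKM, the fragments counted on a gene, scaled by its length and by the depth of the library. Libraries held 11648801 to 25101868 fragments on genes, and a gene of the set had between 0 and 4791 of them. *Hmox1*, which encodes the heme-degrading enzyme HO-1, had an FPKM of 7.62, 6.85 and 7.90 in controls with vehicle and 3.14, 2.11 and 2.31 in colonoids labelled KO with vehicle, called lower there (log2 fold change −1.27, limma adjusted p = 1.2e-05) as the label says. With hemin it stood at 503, 483 and 382 in controls and at 1279, 1393 and 1271 in colonoids labelled KO (log2 fold change 1.53, limma adjusted p = 3.3e-06), so it was higher there and not lower. FPKM counts fragments over the whole gene, so this value cannot tell a deleted allele from an intact one. The genotype is given as labelled throughout. Markers of epithelium summed to an FPKM of 5870 to 10000 in every library. The 5 immune markers summed to at most 5.17, with 1 of them, *Cd68*, above the filter. *Cd68* was called higher with hemin in colonoids labelled KO (1.14) and was lower there under vehicle by adjusted p (−0.82). Of the 8 epithelial markers 6 were higher and 2 lower with hemin in colonoids labelled KO by adjusted p, and 3 and 0 in controls (60.4% and 49.9% of all genes in either direction). Against controls, by adjusted p, 4 were lower and 0 higher in colonoids labelled KO under vehicle, and 2 lower and 1 higher under hemin (34.2% and 34.4% of all genes in either direction). With each treatment 1 was called lower, and the lowest values were −2.03 and −1.27. The part of these markers in the results was not tested. None of the 6 fibroblast and muscle or 3 endothelial markers passed the filter, with *Col1a2* at 0 throughout. A single gene, *Gm23935*, took 16.8% of the summed FPKM in replicate 1 of the vehicle controls, 29.0% in replicate 1 of the hemin controls and 21.0% in replicate 2 of the colonoids labelled KO with hemin, and at most 2.81% in the other libraries. Without these 3 libraries the counts of genes called in the 5 comparisons given below were 32, 29, 0, 8 and 2, against 34, 29, 0, 9 and 2 with them.

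Replication genes were lower with hemin in both genotypes, and with either treatment they stood higher in the colonoids labelled KO. The 52 genes together took 0.299 to 0.306% of all fragments in the 3 vehicle controls and 0.0999 to 0.115% in the hemin controls. In colonoids labelled KO they took 0.459 to 0.464% with vehicle and 0.170 to 0.192% with hemin. The 4 ranges do not overlap, with the order vehicle labelled KO, vehicle control, hemin labelled KO and hemin control. The median FPKM of the 52 genes ran from 10.2 to 10.6, from 3.43 to 4.48, from 12.9 to 13.7 and from 7.11 to 7.33 in the 4 groups as first listed, so the same order held for the typical gene. The heat map of all 52 genes shows this order library by library.

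**Figure D1:**
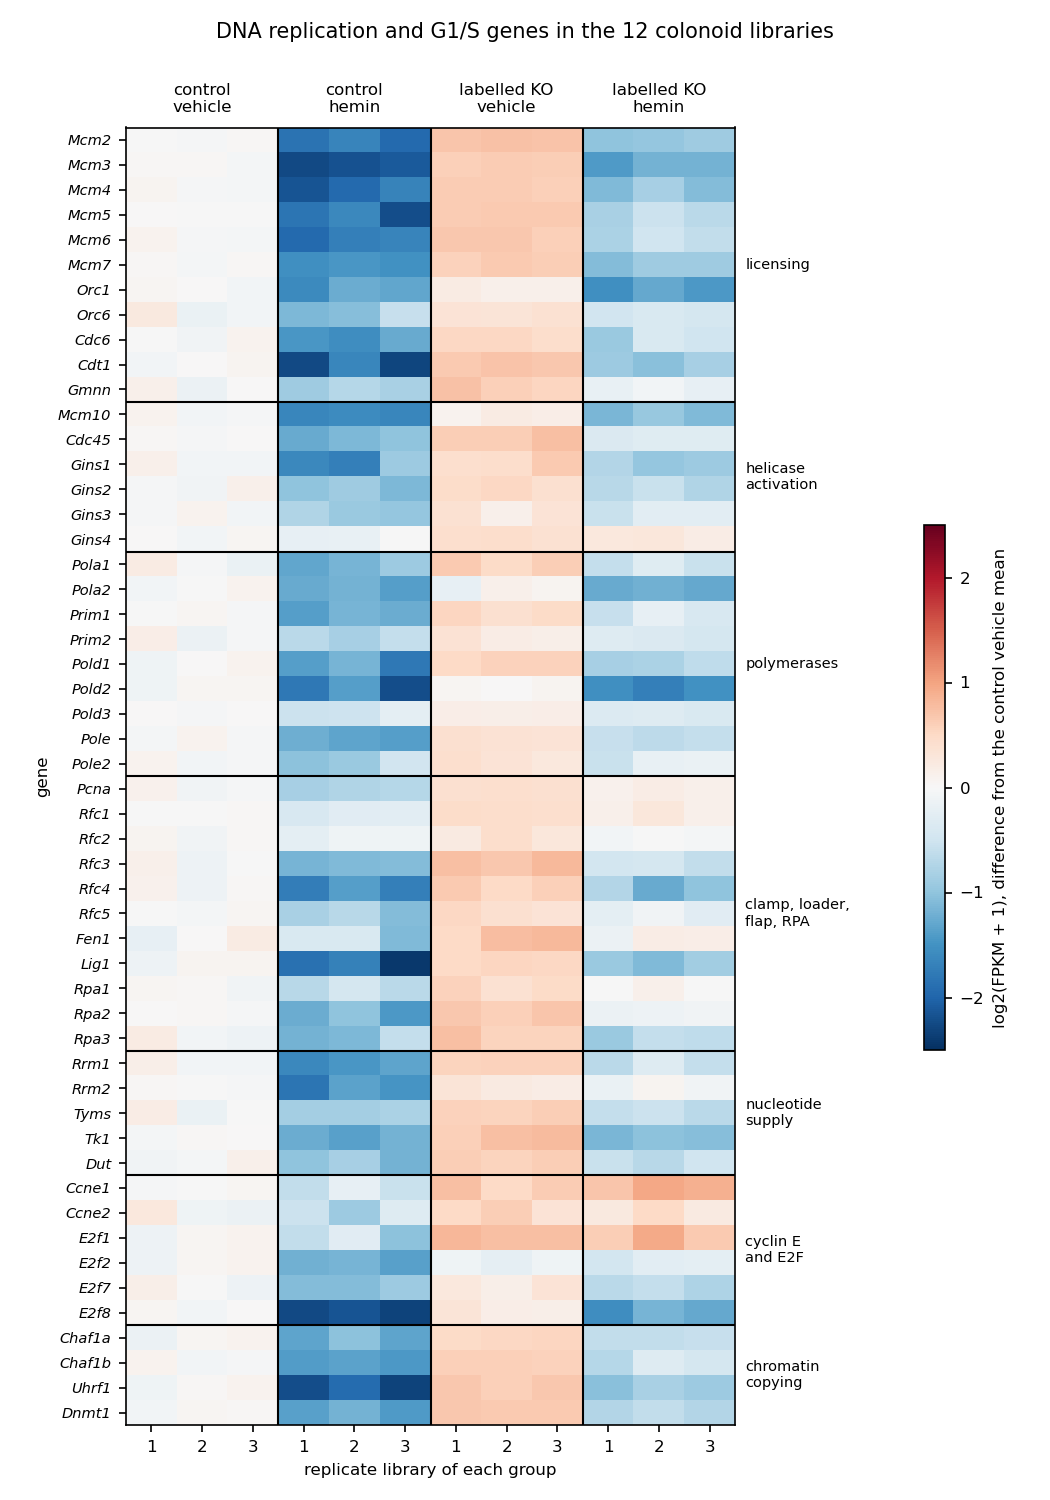
Heat map of the 52 genes (vertical axis, grouped by role) in the 12 libraries (horizontal axis, 3 replicates in each of 4 groups). Colour is the difference of log2(FPKM + 1) from the mean of the 3 control vehicle libraries, blue for lower and red for higher. Hemin controls are blue for nearly all genes, vehicle colonoids labelled KO are pale red, and *Ccne1* and *E2f1* stay red in the colonoids labelled KO with hemin.

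Each gene was tested with limma on log2(FPKM + 1), a scale that understates the change of low genes, and was called at a Benjamini-Hochberg adjusted p under 0.05, taken over all genes tested, together with an absolute log2 fold change above 1. In controls, hemin against vehicle was called lower for 34 of the 52 and higher for 0, where 5.93% of all genes tested were called lower and 2.17% higher. By adjusted p alone, 50 of the 52 were lower (26.7% of all genes), and in 51 no hemin library reached a vehicle library (27.8% of all genes). Their median log2 fold change was −1.23, against −0.01 for all genes tested. In colonoids labelled KO, 29 were called lower and 0 higher (8.07% and 4.87% of all genes), 48 were lower by adjusted p alone (30.4%), 49 stood apart (37.2%), and the median was −1.10 against 0.00.

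Between the genotypes under vehicle, no gene of the set was called by limma (3.53% of all genes were called higher and 3.27% lower). Nor was any called by limma-voom on recovered fragments, where 10.2% of all genes were called in either direction and 5.3% higher. At an unadjusted p under 0.05, limma had 46 higher and 0 lower, against 22% and 20.4% of all genes. By adjusted p alone, colonoids labelled KO were higher for 39 of the 52 and lower for 0 (17.4% of all genes were higher), and 47 stood apart in that direction (30.6%). The median log2 difference was 0.51, against 0.02 for all genes, and the largest was 0.78. Under hemin, 9 were called higher in the colonoids labelled KO and 0 lower (3.1% and 2.91% of all genes), 44 were higher by adjusted p alone (19.7%), 45 stood apart (23%), and the median was 0.64 against 0.04. These 9 were *Mcm5*, *Mcm6*, *Cdt1*, *Lig1*, *Rpa2*, *Rrm2*, *Ccne1*, *E2f1* and *Uhrf1*. The count depends on how low values are treated, since 23 of the 52 were called with a pseudocount of 0.1 and 23 with limma-voom on recovered fragments, where the share of all genes called higher also rose, to 5.42% and 5.61%. The comparisons under hemin and within each genotype share libraries, so their counts are not independent of each other.

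Licensing genes had the lowest median of the 7 roles in either genotype. All 11 were lower with hemin by adjusted p in both genotypes, 9 were called lower in each, with a median log2 fold change of −1.76 in controls and −1.57 in colonoids labelled KO. *Mcm3*, a subunit of the ring, had an FPKM of 31.3, 31.1 and 29.4 in vehicle controls, 5.61, 5.95 and 6.34 in hemin controls, 46.9, 48.1 and 47.4 in colonoids labelled KO with vehicle and 10.8, 12.9 and 12.9 in colonoids labelled KO with hemin. It fell by 2.18 on the log2 scale in controls (standard error 0.07, limma adjusted p = 4.7e-09) and by 1.88 in colonoids labelled KO, the largest fall of any of the 52 there. *Mcm2*, another subunit, had 14.1, 13.9 and 14.5 in vehicle controls, 3.20, 3.84 and 2.92 in hemin controls, 23.4, 24.2 and 23.8 in colonoids labelled KO with vehicle and 6.50, 6.75 and 7.18 in colonoids labelled KO with hemin. Its falls were 1.82 and 1.67, and for both genes the 4 groups were separate from each other.

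*Mcm5* and *Mcm6*, subunits of the same ring, were called higher in colonoids labelled KO under hemin. The FPKM of *Mcm5* was 31.3, 31.1 and 31.1 in vehicle controls, 8.03, 9.59 and 5.94 in hemin controls, 48.9, 49.9 and 49.9 in colonoids labelled KO with vehicle and 17.4, 21.2 and 19.3 in colonoids labelled KO with hemin. That of *Mcm6* was 32.3, 29.5 and 29.0 in vehicle controls, 7.16, 8.55 and 8.92 in hemin controls, 48.5, 49.0 and 45.9 in colonoids labelled KO with vehicle and 17.0, 21.1 and 19.5 in colonoids labelled KO with hemin. Hemin libraries labelled KO thus lay above every hemin control for both genes, by 1.21 for *Mcm5* (standard error 0.13, limma adjusted p = 2.5e-05) and by 1.13 for *Mcm6* (0.09, 3.8e-06) on the log2 scale. Without the 3 libraries rich in *Gm23935*, the value for *Mcm6* was 0.98, under the threshold. The differences of the hemin responses were smaller, at 0.56 for *Mcm5* (limma adjusted p = 0.044) and 0.49 for *Mcm6* (0.021), and passed the test in 10 and 17 of the 23 settings tried. *Mcm7*, by contrast, differed by 0.55 between the hemin groups, and 12.6% of its exon bases are shared with other genes. *Cdt1*, which brings the ring to origins, fell by 2.06 in controls and 1.61 in colonoids labelled KO and was higher by 1.13 in the latter under hemin. Geminin (*Gmnn*), the inhibitor of Cdt1, fell less, by 0.80 and 0.78, and neither fall was called. *Orc1*, the largest subunit of the origin recognition complex, had nearly the same level under hemin in both genotypes, at 2.27 ± 0.397 (SD, n = 3) in controls and 2.17 ± 0.265 in colonoids labelled KO, a log2 difference of −0.04 with a 95% interval of −0.25 to 0.17.

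The letters an E2F factor can bind were looked for in the promoters of the 52 genes. RefSeq promoters of 300 bases (250 before and 50 after the start of transcription, build GRCm38.p6) were matched by symbol for 43 of the 52 genes, of which 7 have more than 1 start. A gene was counted when any of its promoters held the motif. For 34 of the 43 a RefSeq start lies within 100 bases of the 5′ end of the gene in the deposited table. The motif searched was TTTCCCGC, TTTCGCGC, TTTGCCGC or TTTGGCGC on either strand. It was present for 18 of the 43 genes (41.9%), against 704 of 27025 genes with a promoter in the table (2.60%) and 425 of the 8893 that were tested here (4.78%). CCAAT, on either strand, was present for 27 (62.8%) against 41.1% and 43.1%. Among the 25 E2F matches, 4 overlapped another such match and 1 overlapped a CCAAT. Median GC content was 61.3% for the members, 52.8% for all genes of the table and 60.9% for those tested. By role, 7 of 9 licensing genes held the E2F motif, 0 of 5 nucleotide supply genes and 2 of 5 genes of cyclin E and E2F. A match is a description of the letters and no measurement of binding.

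Below are the last 160 bases before the start, read 5′ to 3′ on the strand of the gene, with the E2F motif in capitals, for 3 licensing genes that hold it in this stretch (*Mcm5* chr8:75109349-75109508, plus strand; *Mcm6* chr1:128359706-128359865, minus strand; *Orc1* chr4:108579294-108579453, plus strand). They are followed by the genes called in the interaction, *Rrm2* and *E2f2*, and by *Ccne1* (*Rrm2* chr12:24708094-24708253, plus strand; *E2f2* chr4:136172114-136172273, plus strand; *Ccne1* chr7:38107491-38107650, minus strand).
Mcm5: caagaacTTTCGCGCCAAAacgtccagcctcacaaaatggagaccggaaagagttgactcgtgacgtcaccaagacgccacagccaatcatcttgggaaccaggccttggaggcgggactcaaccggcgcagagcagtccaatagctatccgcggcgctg
Mcm6: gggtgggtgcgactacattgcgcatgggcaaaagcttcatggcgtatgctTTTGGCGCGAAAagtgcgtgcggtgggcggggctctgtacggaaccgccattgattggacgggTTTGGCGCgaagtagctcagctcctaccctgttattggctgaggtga
Orc1: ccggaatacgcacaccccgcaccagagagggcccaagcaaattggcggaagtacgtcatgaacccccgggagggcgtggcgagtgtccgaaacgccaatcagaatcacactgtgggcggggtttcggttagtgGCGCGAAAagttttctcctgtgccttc
Rrm2: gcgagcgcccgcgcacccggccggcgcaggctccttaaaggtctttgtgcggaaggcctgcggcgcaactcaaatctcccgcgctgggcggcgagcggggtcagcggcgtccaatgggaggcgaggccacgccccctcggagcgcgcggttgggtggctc
E2f2: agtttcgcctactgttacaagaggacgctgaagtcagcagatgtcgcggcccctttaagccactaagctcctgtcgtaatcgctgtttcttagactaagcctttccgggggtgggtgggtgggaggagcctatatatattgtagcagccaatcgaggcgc
Ccne1: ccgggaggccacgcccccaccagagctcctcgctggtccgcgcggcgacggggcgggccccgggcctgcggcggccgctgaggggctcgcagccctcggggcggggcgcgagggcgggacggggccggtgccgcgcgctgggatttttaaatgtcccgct
In *Mcm5* and *Mcm6* the capitals include matches on both strands that share bases. *E2f2* has its match at base 40 after this start and none at its other start, while *Rrm2*, *E2f1* and *Ccne1* have none in their 300 bases. The RefSeq starts of *Dut*, *Cdc6*, *E2f1* and *Mcm7* (the nearest of its starts) lie 325, 350, 466 and 539 bases inside the gene as the table draws it, so for these genes the bases before that 5′ end were not searched.

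Of the 6 genes of helicase activation, 4 were called lower with hemin in controls and 3 in colonoids labelled KO (5.93% and 8.07% of all genes), and 0 were called between the genotypes. By adjusted p alone, 4 were higher in colonoids labelled KO under vehicle and 6 under hemin (17.4% and 19.7% of all genes), with medians of 0.44 and 0.53. *Cdc45* was called higher under hemin with a pseudocount of 0.1 (1.09) and with limma-voom (1.13). *Mcm10*, which helps to fire the loaded helicase, had an FPKM of 5.74, 5.07 and 5.18 in vehicle controls, 1.04, 1.13 and 1.05 in hemin controls, 5.72, 6.26 and 6.08 in colonoids labelled KO with vehicle and 1.88, 2.30 and 1.95 in colonoids labelled KO with hemin. *Cdc45*, the partner of the ring and of GINS, had 5.01, 4.76 and 4.94 in vehicle controls, 1.48, 1.71 and 1.93 in hemin controls, 7.99, 8.10 and 8.89 in colonoids labelled KO with vehicle and 3.62, 3.81 and 3.76 in colonoids labelled KO with hemin. *Gins1*, a GINS subunit, had 6.40, 5.40 and 5.47 in vehicle controls, 1.21, 1.06 and 2.60 in hemin controls, 8.07, 8.13 and 9.64 in colonoids labelled KO with vehicle and 3.07, 2.47 and 2.57 in colonoids labelled KO with hemin. For all 3 genes every hemin library lay below every vehicle library of its genotype. The log2 falls were 1.61 and 1.21 for *Mcm10*, 1.13 and 0.98 for *Cdc45* and 1.41 and 1.38 for *Gins1*, in controls and colonoids labelled KO respectively. The value of *Cdc45* in colonoids labelled KO passed the threshold on other scales, at −1.14 with a pseudocount of 0.1, −1.15 with limma-voom and −1.27 with TPM. *Gins1* rested on as few as 19 fragments in a library, and replicate 3 of the hemin controls stood at 2.60 against 1.21 and 1.06 in the other two. *Gins4* had the smallest differences of the 6, at 19.8 ± 0.770 with vehicle and 18.0 ± 1.43 with hemin in controls (log2 fold change −0.13, limma adjusted p = 0.11). In colonoids labelled KO it was 26.8 ± 0.660 with vehicle and 23.7 ± 0.945 with hemin, lower by adjusted p (−0.17, limma adjusted p = 0.037) and with no overlap of libraries. *Gins2* shares 67.3% of its exon bases with *Gse1* on the opposite strand, and whether the counting used strand is not given in the sources used here, so its fall of 1.00 in controls is uncertain. It was 0.94 without replicate 3 of the vehicle controls and 0.95 without replicate 3 of the hemin controls, under the threshold.

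Of the 9 polymerase genes, all were lower with hemin by adjusted p in both genotypes, 6 were called in controls and 4 in colonoids labelled KO. *Pold2*, a subunit of polymerase delta, had an FPKM of 38.2, 42.7 and 42.7 in vehicle controls, 11.2, 15.2 and 8.04 in hemin controls, 42.7, 41.5 and 43.5 in colonoids labelled KO with vehicle and 13.6, 11.9 and 13.8 in colonoids labelled KO with hemin. *Pold1*, its catalytic subunit, had 10.2, 11.1 and 11.9 in vehicle controls, 3.63, 4.40 and 2.50 in hemin controls, 16.0, 16.9 and 17.0 in colonoids labelled KO with vehicle and 5.75, 5.96 and 6.80 in colonoids labelled KO with hemin. For *Pold2* the hemin groups overlapped and so did the vehicle groups, while *Pold1* was higher in colonoids labelled KO with either treatment (log2 difference 0.55 with vehicle and 0.69 with hemin, limma adjusted p = 0.0081 and 0.0021). *Prim1*, the catalytic subunit of the primase, had 6.03, 6.29 and 5.91 in vehicle controls, 1.72, 2.16 and 1.99 in hemin controls, 9.33, 8.33 and 8.80 in colonoids labelled KO with vehicle and 3.73, 5.14 and 4.40 in colonoids labelled KO with hemin. *Pole*, the catalytic subunit of polymerase epsilon, had 3.44, 3.86 and 3.52 in vehicle controls, 0.990, 0.841 and 0.782 in hemin controls, 5.07, 4.91 and 4.81 in colonoids labelled KO with vehicle and 2.07, 1.91 and 2.07 in colonoids labelled KO with hemin. Both fell in each genotype, by 1.26 and 0.86 for *Prim1* and by 1.30 and 0.98 for *Pole*, and the values in colonoids labelled KO are under the fold threshold. There *Pole* passed it at −1.25 with a pseudocount of 0.1, −1.3 with limma-voom, −1.23 with TPM and −1.15 with TPM that leaves *Gm23935* out. *Prim1* passed it with these 2 TPM scales, at −1.16 and −1.06. *Pola2*, which belongs to the polymerase alpha complex with the primase, did not separate the genotypes, with log2 differences of 0.00 under vehicle and 0.03 under hemin and 95% intervals of −0.19 to 0.20 and −0.16 to 0.22.

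The clamp, its loader, the flap enzyme, ligase and the single-strand binding complex held 11 genes, and 4 of them were called lower with hemin in each genotype. *Lig1*, which seals the nicks of the lagging strand, had an FPKM of 23.5, 27.0 and 27.0 in vehicle controls, 6.31, 7.29 and 4.01 in hemin controls, 36.8, 38.0 and 37.2 in colonoids labelled KO with vehicle and 13.1, 11.5 and 13.6 in colonoids labelled KO with hemin. *Rpa2*, of the complex that coats single-stranded DNA, had 10.1, 10.4 and 9.87 in vehicle controls, 3.69, 4.55 and 3.15 in hemin controls, 16.8, 15.9 and 17.1 in colonoids labelled KO with vehicle and 9.10, 9.19 and 9.55 in colonoids labelled KO with hemin. Both were called higher in colonoids labelled KO under hemin, *Rpa2* by 1.11 (standard error 0.09, limma adjusted p = 3.6e-06) and *Lig1* by 1.03 (0.15, 3.4e-04). The call of *Lig1* rested on single libraries, with 0.82 without replicate 3 of the hemin controls and 0.98 without replicate 3 of the colonoids labelled KO with hemin. *Rfc4*, a subunit of the loader, had 13.1, 11.0 and 12.4 in vehicle controls, 2.97, 4.03 and 3.02 in hemin controls, 19.8, 17.7 and 18.9 in colonoids labelled KO with vehicle and 6.89, 4.46 and 5.55 in colonoids labelled KO with hemin. It fell by 1.61 and 1.59, and 12.7% of its exon bases are shared with *Eif4a2* on the other strand.

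*Pcna*, the sliding clamp, had the highest FPKM of the set in each group. Its FPKM was 80.5, 70.7 and 73.7 in vehicle controls, 41.5, 44.0 and 45.6 in hemin controls, 99.3, 101 and 99.3 in colonoids labelled KO with vehicle and 80.8, 84.8 and 82.3 in colonoids labelled KO with hemin. It fell by 0.76 in controls and by 0.27 in colonoids labelled KO, both under the threshold for a call, and the difference of the responses was 0.49 (standard error 0.08, limma adjusted p = 0.0017). *Rfc1* and *Rfc2* also moved little, with falls of 0.31 and 0.26 for *Rfc1* and values of −0.16 and −0.37 for *Rfc2*, of which the first did not pass the test (limma adjusted p = 0.087). *Fen1*, the flap endonuclease, was listed at 0.438 ± 0.380 to 2.50 ± 0.394 over the 4 groups, with 0 fragments in replicate 3 of the hemin controls. Since 84.2% of its exon bases are shared with *Tmem258* and *Gm10143*, its level is uncertain.

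Among the 5 genes of nucleotide supply, all were lower with hemin by adjusted p in both genotypes. The difference of the responses was positive for 1 (13.3% of all genes) and negative for 2 (10.5%) by the same test. *Rrm2*, the small subunit whose supply limits the making of deoxynucleotides, had an FPKM of 35.5, 34.5 and 34.1 in vehicle controls, 9.11, 13.1 and 11.9 in hemin controls, 43.6, 40.6 and 39.7 in colonoids labelled KO with vehicle and 30.9, 36.5 and 32.5 in colonoids labelled KO with hemin. The hemin controls were below all other libraries, while the colonoids labelled KO with hemin overlapped the vehicle controls. The log2 fall was 1.54 in controls (standard error 0.11, limma adjusted p = 1.1e-06) and 0.30 in colonoids labelled KO (0.11, 0.033). The difference of the responses, 1.24 (0.16, 2.1e-04), was the largest of the 52, and that between the hemin groups, 1.48 (0.11, 1.7e-06), was too. *Rrm1*, the large subunit, had 15.7, 13.4 and 13.5 in vehicle controls, 3.95, 4.52 and 5.10 in hemin controls, 21.4, 21.8 and 21.7 in colonoids labelled KO with vehicle and 8.54, 11.2 and 9.08 in colonoids labelled KO with hemin. It fell by 1.47 in controls and by 1.10 in colonoids labelled KO, with a difference of the responses of 0.36 that did not pass the test (limma adjusted p = 0.10).

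*Tk1*, the cytosolic thymidine kinase of S phase, went the other way. Its FPKM was 12.8, 13.6 and 13.4 in vehicle controls, 5.01, 4.54 and 5.32 in hemin controls, 20.7, 23.2 and 23.5 in colonoids labelled KO with vehicle and 5.42, 6.03 and 5.82 in colonoids labelled KO with hemin. It fell by 1.26 in controls and by 1.80 in colonoids labelled KO, a difference of −0.53 (standard error 0.10, limma adjusted p = 0.0030). Colonoids labelled KO stood above controls with vehicle by 0.71 and differed by 0.18 with hemin, where the 3 libraries of each group did not overlap but the adjusted p was 0.068. *Tyms*, which makes thymidylate from deoxyuridylate, followed *Tk1*, with falls of 0.83 and 1.18 and a difference of −0.35 (0.12, 0.047). The difference of *Tyms* passed the test in 6 of the 23 settings tried, that of *Tk1* in 22. *Dut*, which removes dUTP, had 24.7, 25.3 and 28.7 in vehicle controls, 12.5, 14.3 and 11.0 in hemin controls, 40.7, 39.0 and 40.8 in colonoids labelled KO with vehicle and 17.3, 15.7 and 18.2 in colonoids labelled KO with hemin. Its falls of 1.00 and 1.19 differed by −0.19, which did not pass the test (limma adjusted p = 0.35), and the control value was 0.94 without replicate 3 of the vehicle controls and 0.92 without replicate 3 of the hemin controls, under the threshold. *Rrm2* and *Tk1*, both enzymes of deoxynucleotide supply, thus lay on opposite sides of the line of equal response, as the plot of the hemin response by genotype shows.

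**Figure D2:**
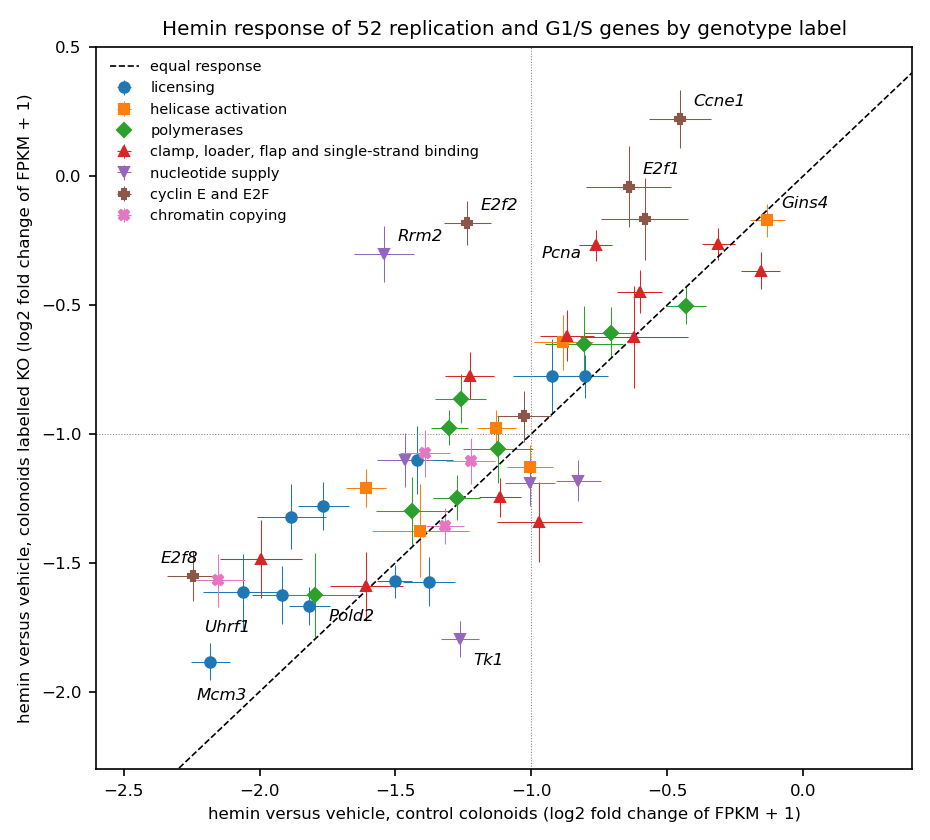
Log2 fold change of FPKM + 1 with hemin in controls (horizontal axis) against that in colonoids labelled KO (vertical axis) for the 52 genes, with a marker for each role, bars of 1 standard error from limma and dotted lines at the fold threshold. Most genes lie near the dashed line of equal response, *Rrm2*, *E2f2*, *E2f8*, *Ccne1* and *E2f1* lie above it, and *Tk1* lies below it. For *E2f1* the difference of the responses did not pass the test.

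Cyclin E and the E2F factors stand at the head of this machinery. In controls all 6 were lower with hemin by adjusted p (26.7% of all genes) and 3 were called (5.93%). In colonoids labelled KO 2 were lower by adjusted p (30.4% of all genes) and 1 was called (8.07%). The interaction of genotype and hemin was positive by adjusted p for 3 of the 6 (13.3% of all genes) and did not pass the test for 3. *Ccne1*, cyclin E1, had an FPKM of 5.40, 5.47 and 5.74 in vehicle controls, 3.29, 4.70 and 3.44 in hemin controls, 10.0, 8.26 and 9.08 in colonoids labelled KO with vehicle and 9.57, 11.8 and 11.1 in colonoids labelled KO with hemin. It fell by 0.45 in controls (standard error 0.11, limma adjusted p = 0.0066). In colonoids labelled KO the value was 0.22 (0.11, 0.12), which did not pass the test and was −0.09 when FPKM were rescaled to TPM. *E2f1*, an activating E2F, had 4.81, 5.57 and 5.77 in vehicle controls, 3.14, 4.21 and 2.14 in hemin controls, 10.4, 9.70 and 9.70 in colonoids labelled KO with vehicle and 8.72, 11.2 and 9.04 in colonoids labelled KO with hemin. Controls changed by −0.64 on the log2 scale (0.16, 0.0058) and colonoids labelled KO by −0.04, with a 95% interval of −0.39 to 0.31. The difference of these responses, 0.60, did not pass the test (limma adjusted p = 0.076), and it passed in 2 of the 23 settings tried. *E2f1* was higher in colonoids labelled KO by 0.78 with vehicle and by 1.38 with hemin, and *Ccne1* by 0.63 and 1.30, with no library overlapping in either treatment.

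*E2f2*, a close relative of *E2f1*, showed no excess with vehicle. Its FPKM was 10.1, 11.6 and 11.9 in vehicle controls, 4.33, 4.45 and 3.77 in hemin controls, 10.3, 9.47 and 10.4 in colonoids labelled KO with vehicle and 7.84, 9.13 and 9.24 in colonoids labelled KO with hemin. Vehicle groups overlapped, hemin controls lay below all other libraries, and colonoids labelled KO with hemin lay just under their vehicle group. The difference of the responses was 1.05 (standard error 0.12, limma adjusted p = 1.2e-04), which was called, as was that of *Rrm2*, and no other of the 52 was (2.57% of all genes tested were called in this direction and 2.56% in the other). Without replicate 3 of the hemin controls it was 0.99 for *E2f2* and with TPM it was 0.90, under the threshold, while *Rrm2* was called under each of the 23 settings tried, at 1.02 to 1.34. *Ccne2*, cyclin E2, was higher by 0.90 in colonoids labelled KO under hemin, under the threshold for a call, and 17.4% of its exon bases are shared with *Ints8*.

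*E2f7* and *E2f8*, the atypical E2F factors that repress E2F targets in S phase, fell with the licensing genes. *E2f8* had an FPKM of 10.7, 9.78 and 10.3 in vehicle controls, 1.34, 1.52 and 1.26 in hemin controls, 13.1, 11.6 and 11.5 in colonoids labelled KO with vehicle and 2.83, 3.99 and 3.61 in colonoids labelled KO with hemin. It fell by 2.24 in controls, the largest fall of the 52 there, and by 1.55 in colonoids labelled KO, a difference of 0.69 (standard error 0.14, limma adjusted p = 0.0040) that was called with a pseudocount of 0.1 (1.04) and with limma-voom (1.11). *E2f7* had 2.53, 2.18 and 1.91 in vehicle controls, 0.506, 0.507 and 0.694 in hemin controls, 2.83, 2.54 and 3.07 in colonoids labelled KO with vehicle and 1.01, 1.11 and 0.866 in colonoids labelled KO with hemin. Its falls were 1.03 and 0.93, and the former was 0.96 without replicate 1 of the vehicle controls, 1.00 without replicate 1 or replicate 2 of the hemin controls and 0.93 without the 3 libraries rich in *Gm23935*, each at or under the threshold. The value in colonoids labelled KO passed it on other scales, at −1.41 with a pseudocount of 0.1, −1.47 with limma-voom, −1.15 with TPM and −1.07 with TPM that leaves *Gm23935* out. The plot of 8 genes by library sets activators and targets side by side.

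**Figure D3:**
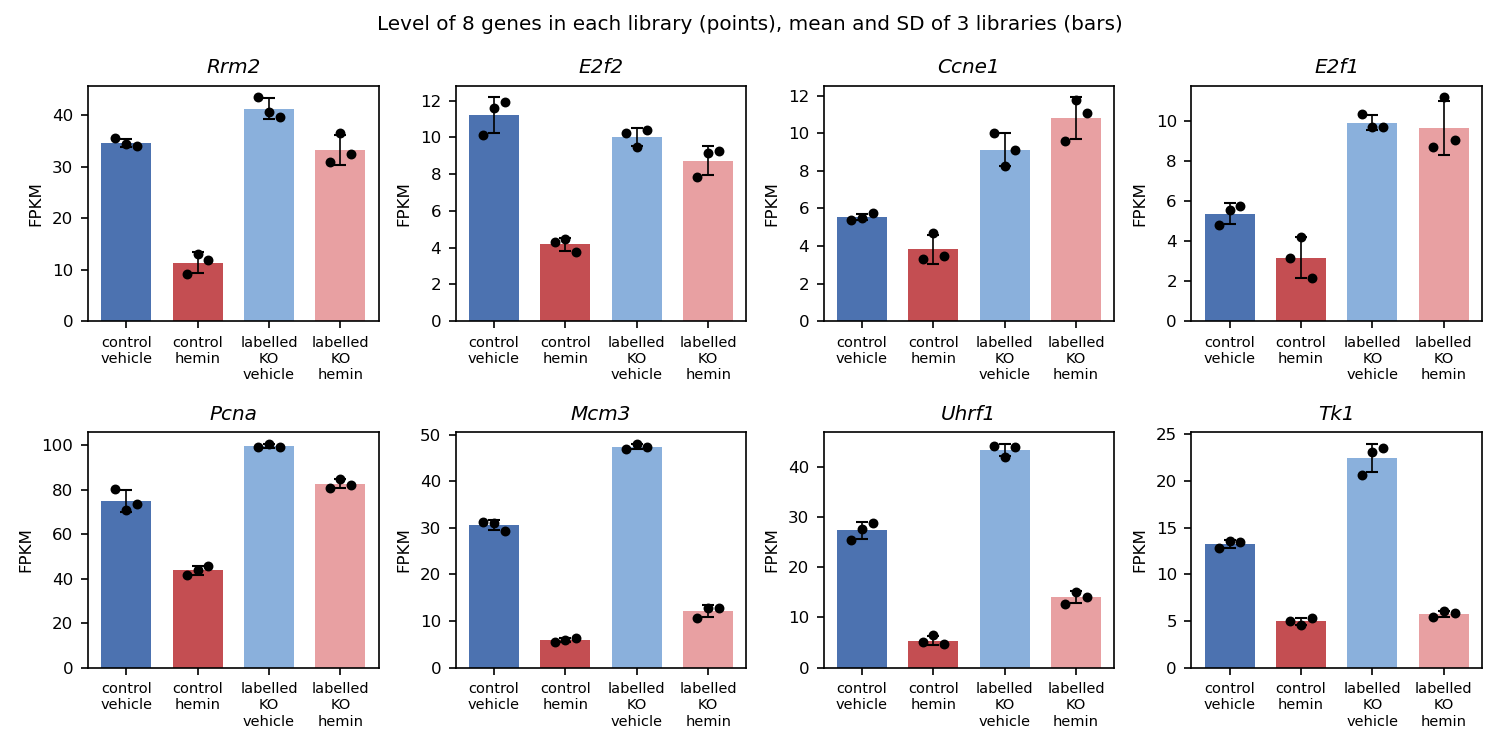
FPKM (vertical axis, from 0) of 8 genes in the 4 groups (horizontal axis), with a point for each of 3 libraries, bars at their mean and error bars of 1 SD. *Rrm2*, *E2f2*, *Ccne1*, *E2f1* and *Pcna* stand higher in the colonoids labelled KO with hemin than in hemin controls, and so do *Mcm3* and *Uhrf1*, which fall deeply in both genotypes. *Tk1* ends at 4.96 and 5.76.

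The 4 genes that copy chromatin with the DNA were all called lower with hemin in both genotypes. *Uhrf1*, which recognises hemimethylated DNA behind the fork, had an FPKM of 25.4, 27.7 and 28.9 in vehicle controls, 5.06, 6.49 and 4.66 in hemin controls, 44.3, 42.1 and 44.0 in colonoids labelled KO with vehicle and 12.7, 15.2 and 14.1 in colonoids labelled KO with hemin. *Dnmt1*, the maintenance methyltransferase it recruits, had 21.2, 23.0 and 22.9 in vehicle controls, 8.07, 9.31 and 7.74 in hemin controls, 36.4, 35.7 and 35.7 in colonoids labelled KO with vehicle and 13.0, 14.3 and 13.0 in colonoids labelled KO with hemin. They fell by 2.15 and 1.57 for *Uhrf1* and by 1.32 and 1.36 for *Dnmt1*. Under hemin both were higher in colonoids labelled KO, *Uhrf1* by 1.24 (standard error 0.10, limma adjusted p = 3.9e-06) and *Dnmt1* by 0.63 (0.07, 4.2e-05), of which the former was called. *Chaf1b*, of the complex that lays histones on new DNA, had 5.88 to 6.67 in the 3 vehicle controls, 1.74, 1.82 and 1.65 in hemin controls, 9.81, 9.86 and 9.71 in colonoids labelled KO with vehicle and 3.40, 4.78 and 4.29 in colonoids labelled KO with hemin. Its falls were 1.39 and 1.08, the latter 0.97 without replicate 1 of the colonoids labelled KO with hemin. *Chaf1a*, of the same complex, fell by 1.22 and 1.11, with 52.5% of its exon bases shared with *Ubxn6*.

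Set side by side, 27 of the 52 genes were called lower with hemin in both genotypes, 7 in controls alone, 2 in colonoids labelled KO alone and 16 in neither. Being called in a single genotype does not show a difference, which the interaction of genotype and hemin tests. By adjusted p alone the interaction was positive for 11 of the 52 (a smaller fall in the colonoids labelled KO, 13.3% of all genes) and negative for 2 (10.5%), and 39 were not past the test. These 13 are 25% of the set, where 23.8% of all genes passed in either direction, so on the deposited scale the count is near the background. With limma-voom 19 passed (36.5%, against 23.4% of all genes) and with a pseudocount of 0.1 it was 15 (28.8%, against 22.4%). With TPM that leaves *Gm23935* out it was 9 (17.3%, against 24.4%). The median over the 52 was 0.15, against 0.02 for all genes, and it depends on the scale. Rescaled to TPM it was −0.01, with 25 genes positive, 27 negative and 2 past the test, and the median of all genes was −0.11. With a pseudocount of 0.1 it was 0.33 and with limma-voom 0.36. As a ratio of group means, hemin left a median of 34.9% of the vehicle level in controls and 39.6% in colonoids labelled KO, and 40 of the 52 kept a larger share in the latter, as did 51.4% of all genes with a vehicle level. With TPM the medians were 30.6% and 31.3%, and 35 of the 52 kept the larger share against 37.5% of all genes. On the deposited scale the shares were 47.1% and 87.0% for cyclin E and E2F, where 6 of 6 genes kept more in colonoids labelled KO, and 25.2% and 32.5% for licensing, where 9 of 11 did. For nucleotide supply they were 37.3% and 42.5%, though 2 of 5 genes kept more and *Tyms*, *Tk1* and *Dut* kept less.

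Ratios of partner genes within a library do not depend on how libraries are scaled to each other. They were chosen after the values were seen and are given as a description, without a test. *Rrm2* to *Rrm1*, the subunits of ribonucleotide reductase, stood at 2.26, 2.57 and 2.52 in vehicle controls, 2.31, 2.91 and 2.33 in hemin controls, 2.04, 1.87 and 1.83 in colonoids labelled KO with vehicle and 3.62, 3.27 and 3.58 in colonoids labelled KO with hemin. Hemin-treated colonoids labelled KO were above every other library and the vehicle group of the same label was below every other library. *Ccne1* to *Cdk2*, cyclin and kinase, stood at 0.865, 0.847 and 0.884 in vehicle controls, 1.43, 1.85 and 1.36 in hemin controls, 1.09, 0.889 and 0.998 in colonoids labelled KO with vehicle and 2.55, 3.47 and 2.61 in colonoids labelled KO with hemin. In either genotype every hemin library was above every vehicle library, and the colonoids labelled KO were highest.

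*Cdt1* to *Gmnn*, the loader and its inhibitor, stood at 0.753, 0.968 and 0.918 in vehicle controls, 0.284, 0.419 and 0.251 in hemin controls, 0.825, 0.946 and 0.973 in colonoids labelled KO with vehicle and 0.505, 0.421 and 0.543 in colonoids labelled KO with hemin. The ratio was lower in each hemin library than in any vehicle library, and every hemin-treated library labelled KO lay above every hemin control. *E2f1* to *E2f8*, an activator and a repressor, stood at 0.450, 0.569 and 0.562 in vehicle controls, 2.35, 2.77 and 1.70 in hemin controls, 0.792, 0.835 and 0.845 in colonoids labelled KO with vehicle and 3.08, 2.81 and 2.50 in colonoids labelled KO with hemin. Here hemin libraries of both genotypes were above all vehicle libraries and overlapped each other. *Pcna* to the mean of *Mcm2* to *Mcm7* was 2.72 ± 0.119 (SD, n = 3) and 2.30 ± 0.0156 with vehicle in controls and colonoids labelled KO, and 6.14 ± 0.321 and 5.75 ± 0.397 with hemin, higher with hemin in both genotypes. *Mcm5* to *Mcm7*, subunits of 1 ring, was 0.884 ± 0.0298 and 0.908 ± 0.0192 with vehicle, 0.664 ± 0.141 in hemin controls and 1.09 ± 0.0484 in colonoids labelled KO with hemin.

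**Figure D4:**
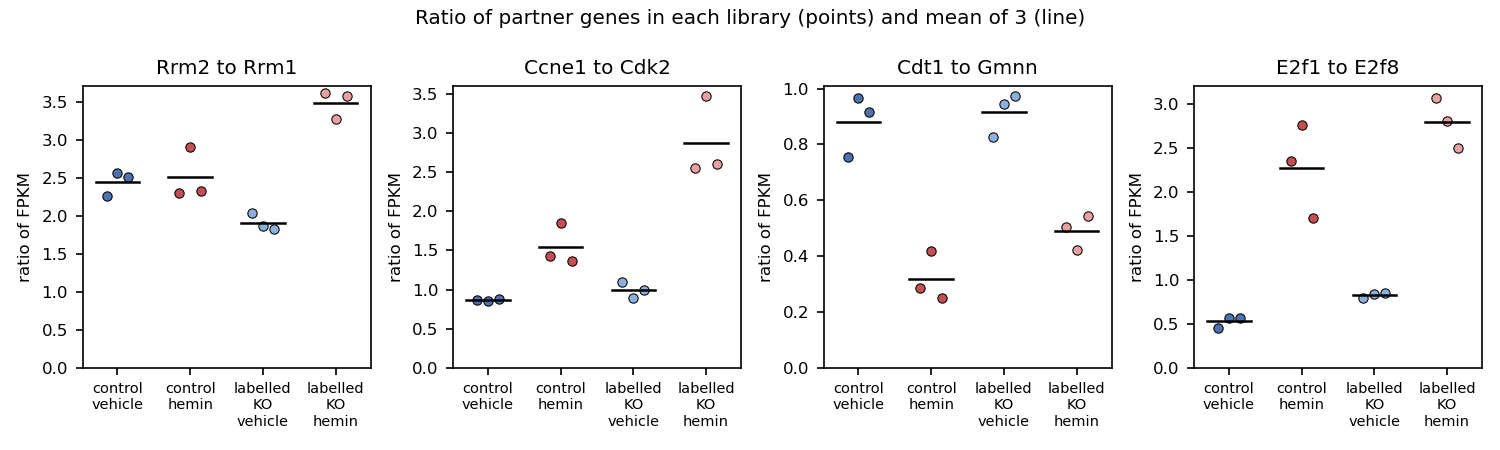
Ratio of the FPKM of 2 partner genes (vertical axis, from 0) in each library of the 4 groups (horizontal axis), with points for libraries and a line at the mean of 3. *Rrm2* to *Rrm1* and *Ccne1* to *Cdk2* are highest in the colonoids labelled KO with hemin, with means of 3.49 and 2.88, while *Cdt1* to *Gmnn* falls and *E2f1* to *E2f8* rises with hemin in both genotypes.

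Other genes of the pathway were taken from lists that are not the members. Of 17 G1 cyclins, kinases, pocket proteins and related factors, 4 were called lower with hemin in each genotype (5.93% and 8.07% of all genes) and 0 higher, with medians of −0.30 and −0.28. By adjusted p alone, 9 were lower and 2 higher in controls, and 9 lower and 5 higher in colonoids labelled KO. The highest values were 0.61 and 0.96. *Ccnd1*, cyclin D1, fell by 2.72 in controls and by 1.72 in colonoids labelled KO, with a called difference of 1.00. *Ccnd2*, cyclin D2, did not pass the test in controls (−0.06, limma adjusted p = 0.39) and was higher in colonoids labelled KO by 1.08 with vehicle and 1.45 with hemin, both called. *Myc* fell by 1.40 and 1.33, *Cdk4* by 1.02 and 1.70 and *Cdk2* by 1.10 and 1.09. Of 7 CDK inhibitors, 0 were called with hemin in either genotype by limma, with 4 past the adjusted p in controls and 5 in colonoids labelled KO, where 49.9% and 60.4% of all genes passed in either direction. Between the hemin groups 0 were called, while by adjusted p alone (34.4% of all genes) 4 were lower in colonoids labelled KO (log2 differences of −0.89 for *Cdkn1c*, −0.87 for *Cdkn2b*, −0.71 for *Cdkn2a* and −0.20 for *Cdkn1b*) and 2 were higher (*Cdkn2c* at 0.80 and *Cdkn1a*). *Cdkn2b*, which encodes p15, was also called lower there with vehicle, at −1.29. *Cdkn1a*, which encodes p21, was 62.0 ± 7.42 in hemin controls and 96.5 ± 9.34 in colonoids labelled KO with hemin (log2 difference 0.63, limma adjusted p = 3.0e-04, under the threshold for a call), and 55.7 ± 2.10 and 61.6 ± 1.22 with vehicle.

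Of all genes tested, 5.93% were called lower with hemin in controls and 8.07% in colonoids labelled KO, the background for the lists here. Of 21 other replication factors, 8 were called lower in controls and 4 in colonoids labelled KO, with medians of −0.69 and −0.62. *Clspn*, which signals from stalled forks, was the only one called between the hemin groups (1.12 higher in colonoids labelled KO), where 3.1% of all genes were called higher. Of 11 other genes of nucleotide supply, 3 and 5 were called lower, with *Cad*, the enzyme that starts pyrimidine synthesis, at −1.75 and −2.35. The 22 mitotic genes, taken for comparison, were all called lower in controls and 17 in colonoids labelled KO, with medians of −1.45 and −1.25. Between the hemin groups 0 of the 22 mitotic genes were called and 17 were higher in colonoids labelled KO by adjusted p alone, with a median of 0.46. Of the 52 replication genes 9 were called and 44 were higher by adjusted p alone, with a median of 0.64. Most genes of either list were thus higher by adjusted p alone, as were 19.7% of all genes.

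Markers of crypt position followed the replication genes in part. The 6 stem and transit cell markers, of which 5 passed the filter, summed to an FPKM of 40.9 to 44.2 in vehicle controls, 14.3 to 22.0 in hemin controls, 58.4 to 61.7 in vehicle colonoids labelled KO and 21.5 to 24.0 with hemin there, so the hemin groups overlapped. All 5 tested were lower with hemin by adjusted p in both genotypes, with medians of −0.94 in controls and −1.32 in colonoids labelled KO, and their interaction was lower by adjusted p for 2 (10.5% of all genes) and called for 1, a deeper fall in colonoids labelled KO, and did not pass the test for 3. The 8 markers of differentiated colonocytes and goblet cells, all above the filter, summed to 3010 to 3270, 4980 to 7400, 2160 to 2210 and 3400 to 4250 in the same order. Most of the higher sum with hemin was *Car1*, at 2129 and 4918 in controls and 1314 and 2849 in colonoids labelled KO, while by adjusted p 3 of the 8 were higher and 4 lower in controls and 2 higher and 5 lower in colonoids labelled KO (49.9% and 60.4% of all genes in either direction), with medians of −0.27 and −1.34. Their interaction was called lower for 5 of the 8 and higher for 1 (5.13% of all genes in either direction), from −2.75 for *Car4* to 2.48 for *Aqp8*. Between the hemin groups 2 were called higher and 3 lower in colonoids labelled KO (6.01% of all genes), from −4.63 for *Guca2a* to 5.73 for *Aqp8*, where the 52 replication genes ran from −0.04 to 1.48. None of the markers of either list was at 0 in every library, and their part in the result was not tested. Epithelial marker sums were 8220 to 9200, 7920 to 10000, 5870 to 5910 and 7430 to 8650.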

How the data were processed

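The authors deposited 1 table of FPKM for 54532 genes and 12 libraries of poly-A mRNA. Novogene prepared and sequenced the libraries and ran the bioinformatics. The submitters' processing notes name fastp, HISAT2 2.0.5, featureCounts 1.5.0-p3 and the mm10 genome. FPKM times gene length gave whole multiples of the value of 1 fragment (100% of values within 0.01), from which the fragments per library were recovered. Exon overlaps came from GENCODE M21, which lists 54409 of the gene identifiers, 98.33% at the coordinates given in the table (51 of the 52 genes described).

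The steps that follow used R 4.3.3, limma 3.58.1, Python 3.11.15, pandas 2.3.3 and matplotlib 3.10.9. The filter on low values asked for an FPKM of 1 or more in 3 or more of the 12 libraries. The limma model took log2(FPKM + 1) of all 4 groups, each with its own mean, an intensity trend and 8 residual degrees of freedom, with Benjamini-Hochberg adjustment over the 12740 genes. Calls needed both an adjusted p under 0.05 and a log2 fold change beyond 1 in either direction. The functions were tested on simulated data. No 2 libraries of a group agreed within sampling noise (chi-square per degree of freedom 1.98 to 47.9).

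The genes, their roles and the other lists were chosen with earlier results of these data known. Values in every library are given for the genes with the largest differences of each role between the hemin groups and with hemin in colonoids labelled KO, for those called in the interaction and for *Pcna*, which was added after its values were seen. Alternatives were another pseudocount, filters, scalings, the replicate number as a block, only the groups compared, no trend, the adjusted p alone, limma-voom on fragments and each library left out. TPM without *Gm23935* in the sum and leaving out the 3 libraries rich in it were added after seeing the data. RefSeq promoters were not used here for *Mcm4*, *Gmnn*, *Gins1*, *Gins2*, *Gins4*, *Prim2*, *Pole*, *Rfc2* and *Ccne2*.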

Additional observations from a re-analysis of the deposited data

Results flagged for a closer look

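The hemin response differed between the labelled genotypes, by the interaction of genotype and hemin in limma at an adjusted p under 0.05, for 13 of the 52 genes (25%), near the 23.8% of all genes tested that passed. Rescaled to TPM, 2 of the 52 passed (8.2% of all genes), and 9 with TPM that leaves *Gm23935* out (24.4%). With a pseudocount of 0.1 it was 15 (22.4% of all genes) and with limma-voom 19 (23.4%). The values are log2 units, positive for a smaller fall or a rise in colonoids labelled KO. They were 1.24 for *Rrm2* (adjusted p = 2.1e-04) and 1.05 for *E2f2* (1.2e-04), the called pair. Below the fold threshold were *E2f8* at 0.69 (0.0040), *Ccne1* at 0.67 (0.011), *Uhrf1* at 0.59 (0.013), *Mcm5* at 0.56 (0.044), *Mcm6* at 0.49 (0.021), *Pcna* at 0.49 (0.0017), *Rpa2* at 0.45 (0.025), *Mcm10* at 0.40 (0.017) and *Pole* at 0.33 (0.032). Negative values were found for *Tyms* at −0.35 (0.047) and *Tk1* at −0.53 (0.0030). Over the settings tried, the adjusted p passed the threshold in 23 of 23 for *Rrm2* and *E2f2*, in 22 of 23 for *E2f8*, *Pcna* and *Tk1* and in 21 of 23 for *Ccne1* and *Uhrf1*, but in 17 of 23 for *Mcm6*, 15 of 23 for *Rpa2*, 10 of 23 for *Mcm5*, 6 of 23 for *Tyms*, 18 of 22 for *Mcm10* and 10 of 22 for *Pole*, the last pair having a mean FPKM under the filter of 5 that 1 setting used.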

How the results depend on the processing

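The direction of the members' median held in each of the first 4 comparisons under each alternative that recomputed it (all but the adjusted p alone and the fit of only the groups compared), while the median interaction went from 0.15 to −0.01 with TPM, where the median of all genes moved to −0.11, and to 0.04 with TPM that leaves *Gm23935* out. TPM also moved the median of all genes to −0.16 and −0.27 with hemin in controls and colonoids labelled KO and to 0.14 under vehicle, and the members' medians to −1.39, −1.38 (−1.28 without *Gm23935*) and 0.65. A pseudocount of 0.1 gave medians of −1.52, −1.32, 0.88 under hemin and 0.33 for the interaction, limma-voom gave −1.55, −1.34, 0.93 and 0.36, and a mean FPKM of at least 5 gave −1.22 with hemin in colonoids labelled KO. By the adjusted p alone, 48 genes were lower with hemin in colonoids labelled KO, 39 and 44 differed between the genotypes under vehicle and hemin, and 13 differed in the interaction (25%, against 23.8% of all genes). Under hemin, 23 genes were called with the pseudocount of 0.1 and 23 with limma-voom, where 9 were called on the deposited scale. The share of all genes called in either direction went from 6.01% to 10.5% and 11% at the same time. In the interaction 1 gene was called with TPM, with or without *Gm23935*. Leaving out each library in turn gave 33 to 36, 27 to 30, 0 to 0, 8 to 12 and 1 to 2 genes called, and medians of −1.28 to −1.21, −1.16 to −1.02, 0.51 to 0.54, 0.60 to 0.72 and 0.12 to 0.22. The interaction had 1 gene called without replicate 3 of the hemin controls.

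With the replicate number as a block, 34, 29, 0, 9 and 2 genes were called, the same genes as without it. The numbers did not pair the libraries, with a mean correlation of deviations of −0.04 between same-numbered libraries (−0.33 to 0.18) and of 0.02 between the others. Depth limits *Fen1*, *Gins1* and *Gins3*, which had 0, 19 and 23 fragments in their lowest library.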
